A study of Oryza sativa Japonica Group with 9 samples.

Results

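The transcripts described here are 99 of the 57258 probe sets measured on a rice genome array. Their level was lower in the fungus-free neighbours of colonised cells than in both other kinds of root cortex cell. A probe set is a group of short probes on the array that report on 1 transcript. The 99 were chosen by their measured values: a mean log2 level of at least 6 in mock cells and in arbusculated cells, a mean in systemic cells at least 1.5 log2 below both, and every systemic value below every other value. A step of 1.5 log2 is 2.83-fold. Because the rule used the systemic values, the distance of the systemic group from the other groups is a description throughout and carries no test.

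Cortical cells were cut by laser from roots of rice (Oryza sativa, cultivar Nipponbare) at 7 weeks, with about 2000 cells behind each array. Arbusculated cells came from plants given 250 spores of the fungus Rhizophagus irregularis at planting and contained arbuscules. Systemic cells came from the colonised roots of such plants, next to arbusculated cells, and held no fungus themselves. Mock cells came from plants that received no fungus, and each of the 3 groups had 3 arrays. All groups were of 1 cultivar with no genetic change named in the labels.

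In arbuscular mycorrhiza a soil fungus grows between and into the cortical cells of a root. There it branches into arbuscules, across whose membrane the plant receives phosphate and ammonium and gives lipids and sugars. Only some cortical cells hold arbuscules at any time, so a colonised root also contains cortical cells without fungal structures, whose transcripts may be compared with those of roots that never met the fungus. Genes that respond to the arbuscule itself are known best from the phosphate transporter PT11 of rice, which sits in the membrane around the arbuscule.

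The cell labels were checked against PT11. Its probe set Os.21638.1.S1_at, picked from 4 of that gene after its values were seen, stood at 9.43, 8.91 and 8.30 in the arbusculated arrays, at 4.20, 3.87 and 3.56 in the mock arrays, and at 3.55, 4.37 and 4.37 in the systemic arrays. On this probe set the systemic arrays lay with the mock arrays and below the arbusculated ones. The arbuscule markers written with the design, PT11 and the ammonium transporter AMT3-1, each read from its brightest probe set, did not separate the groups. Their summed log2 level ran from 12.9 to 13.5 in mock, from 13.0 to 14.5 in arbusculated and from 12.9 to 13.9 in systemic arrays. Brightness alone chose these probe sets, so the sums need not include the PT11 probe set above. Array medians over all probe sets ran from 5.42 to 5.54, and the signal difference between 3′ and 5′ control probes, a measure of RNA quality, was 0.78 ± 0.45 log2 in arbusculated, 0.32 ± 0.11 in mock and 0.20 ± 0.32 in systemic arrays (SD, n = 3). Mock array 2 correlated more closely with the arbusculated arrays (mean r = 0.878 across probe sets) than with the other mock arrays (0.853). Systemic array 3 correlated with the mock arrays at 0.866 and with the other systemic arrays at 0.860, and mock array 1 with the systemic arrays at 0.852 and with the other mock arrays at 0.850. Therefore the counts that rest on single arrays are given with and without them.

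Of the 57258 probe sets, 17925 had means of at least 6 in both mock and arbusculated cells. In 493 of these (2.75%) every systemic value lay below every other value, as it did in 1.48% of all probe sets, and 228 had the systemic mean at least 1.5 log2 below both means. Both held for the 99 members. In bulk samples fewer cells of a type and less RNA per cell cannot be told apart.

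The same rule turned to the other groups found fewer probe sets. It found 16 that were lower only in arbusculated cells and 19 that were lower only in mock cells. The count for arbusculated cells became 26 without arbusculated array 1, 46 without arbusculated array 2 and 25 without systemic array 2. The count for mock cells became 134 without mock array 2, 52 without mock array 3, 47 without systemic array 1 and 42 without systemic array 3. The count of 99 itself became 225 without mock array 1, 154 without mock array 3, and 202, 193 or 271 without systemic array 1, 2 or 3. Leaving out an array changes both the overlap and the group mean, and their parts in these counts were not tested. In the opposite direction the mirrored rule asked for a mean of at least 6 in the high group only. Its counts are thus drawn from another pool of probe sets. It found 24 probe sets higher only in systemic cells, 464 higher only in arbusculated cells and 46 higher only in mock cells.

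Among the members the systemic mean was 1.51 to 5.13 log2 below the lower of the other means, with a median of 1.78. This distance, here called the drop, was under 2 log2 in 68 members, at least 2 in 31 and at least 3 in 7. Against mock cells the median fold was 3.75 and the range 2.84 to 49.0, and against arbusculated cells the median was 4.44 and the range 2.84 to 40.6. The widest folds rest on systemic readings under 4 log2, whose distance from background was not tested, so their exact size is uncertain. Over all probe sets tested the median systemic minus mock difference was 0.07 log2 and the median systemic minus arbusculated difference 0.17 log2.

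The members were moderately bright transcripts outside the systemic cells. Their group means had a median of 6.90 in mock, 7.42 in arbusculated and 5.02 in systemic cells. The median member thus stood at percentile 78.9 of all probe sets in mock cells, 84.6 in arbusculated cells and 40.5 in systemic cells. On the systemic arrays 63, 63 and 58 members fell under the array median, against 5, 2 and 1 on the mock arrays and 2, 2 and 0 on the arbusculated arrays. For 40 members all 3 systemic values lay under the median of their array, and for 90 members all 6 other values lay over it. Most members stood in the upper part of the intensity scale in mock and arbusculated cells and near the middle in systemic cells. A few, among them GLUB-5, GER2 and 1 MT2C probe set, stood in the lowest part there. The level of 6 and the drop that the rule required favour such placement, so nothing further is read from it.

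**Figure D1:**
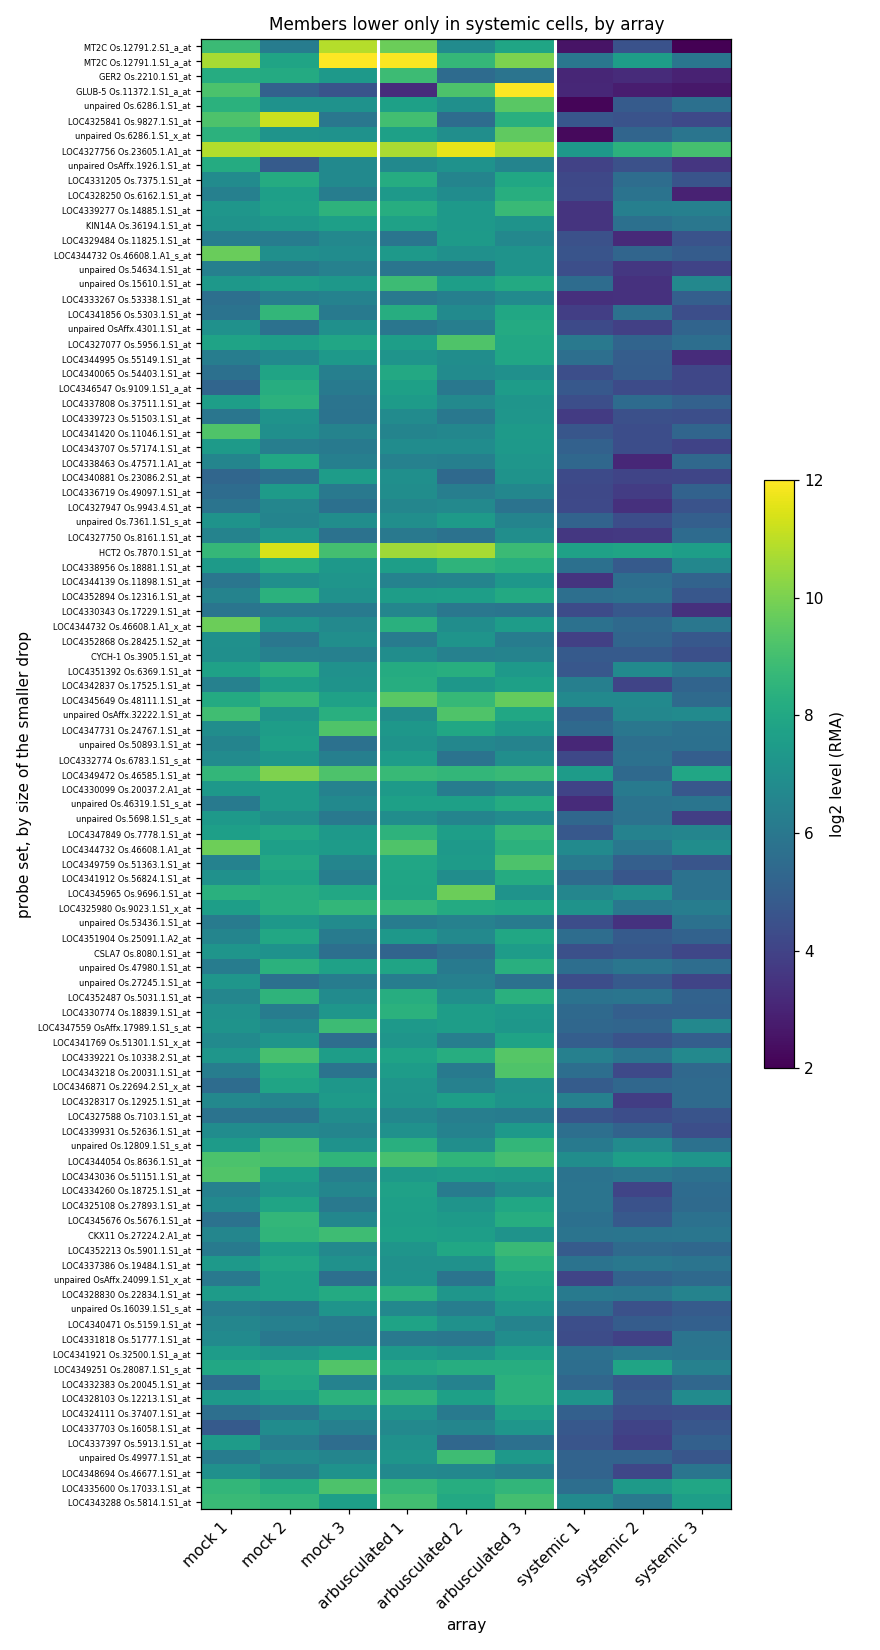
Each line is 1 of the 99 members, ordered by the size of the drop, and each column is 1 of the 9 arrays. Colour gives the log2 level on a scale from 2 to 12, and values past either end take the end colour. The 3 systemic columns are darker than the 6 others in every line, as the selection rule required, while the other columns differ among themselves from gene to gene.

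The array medians over the members were 7.03, 7.58 and 6.87 in mock, 7.46, 6.93 and 7.53 in arbusculated and 5.11, 5.04 and 5.34 in systemic cells. All probe sets of like level (both means at least 6) had medians between 7.02 and 7.21 on all 9 arrays. The rule itself placed the members low on the systemic arrays, so nothing is read from this contrast with probe sets of like level. No single systemic array carried the lowest value of most members, for it fell on array 1 in 32, on array 2 in 40 and on array 3 in 27 of them. For all probe sets of like level the lowest systemic value fell on these arrays in 30.6%, 37.8% and 31.5%.

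**Figure D2:**
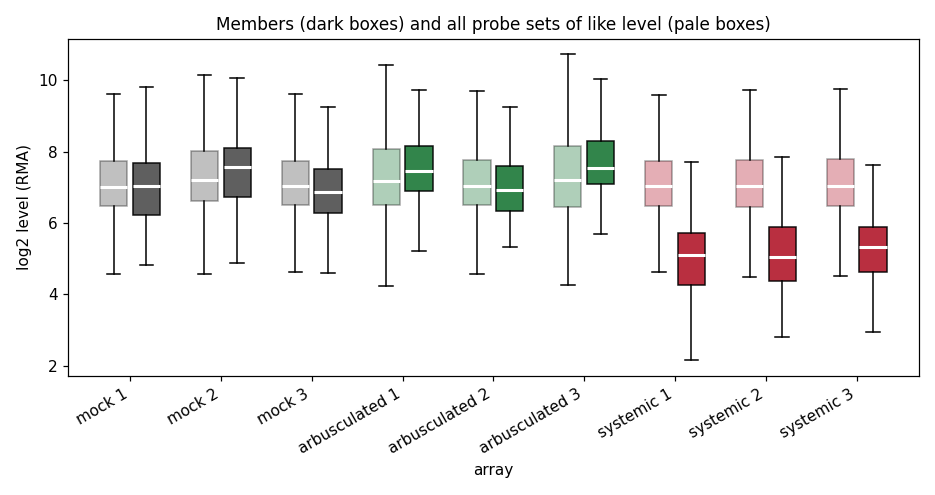
Log2 levels on each of the 9 arrays for the 99 members (dark boxes) and for all 17925 probe sets of like level (pale boxes). Boxes span the quartiles, the white line is the median, and whiskers reach the last value within 1.5 box lengths. The dark boxes drop on the 3 systemic arrays, to medians of 5.04 to 5.34, as the selection rule required. The pale medians stay between 7.02 and 7.21.

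The members scattered more among replicate arrays than probe sets of like level did. The median SD of a member was 0.74 log2 in mock, 0.56 in arbusculated and 0.63 in systemic cells (n = 3 each). Over all probe sets of like level these medians were 0.40, 0.38 and 0.36. The rule used these same values and may itself favour probe sets that scatter more, so nothing is read from this. The space between the highest systemic value and the lowest other value had a median of 0.58 log2 and ran from 0.01 to 2.28, the widest being that of GER2. Within the arbusculated group array 2 held the lowest value of 59 members, against 39.3% of probe sets of like level. Within the mock group array 2 held the highest value of 45 members, against 40.7%.

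The reference tables paired 81 of the members with exactly 1 gene each, 78 genes in all, and 18 with no single gene. Of the 78 genes 8 had a name in these tables and 70 went by their LOC identifier, for which no role is given here. The named genes were MT2C, GER2, GLUB-5, KIN14A, HCT2, CYCH-1, CSLA7 and CKX11. They do not share a pathway. They are described below by role, beginning with the metal-binding, secreted and stored proteins, followed by enzymes of the cell wall, phenolics and hormones, and then the motor and cell cycle proteins.

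MT2C (LOC4337596) encodes a metallothionein, a small cysteine-rich protein that binds metal ions such as copper and zinc. It had the largest drop of all members. Probe set Os.12791.2.S1_a_at read 8.80, 6.20 and 10.90 in mock, 9.74, 6.81 and 7.89 in arbusculated and 2.51, 4.53 and 2.00 in systemic arrays. Every systemic value lay at least 1.66 log2 under the lowest of the others, which was that of mock array 2. The drop was 5.13 log2, and its percentile among all probe sets was 87.6 in mock and 10.4 in systemic cells.

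A further MT2C member, Os.12791.1.S1_a_at, read 10.69, 7.85 and 12.09 in mock, 11.93, 8.68 and 10.04 in arbusculated and 5.96, 7.57 and 5.94 in systemic arrays. The groups were set apart by 0.28 log2 only, because systemic array 2 was high and mock array 2 low, as on the probe set above. The mock arrays scattered by 2.36 and 2.16 log2 (SD, n = 3) on the first and the other probe set. The other 3 probe sets paired with MT2C, all cross-hybridising by their suffix _x_at, did not follow as far. Their systemic minus mock differences were -1.12, -0.47 and 0.16 log2, their systemic minus arbusculated differences -0.84, -1.27 and -0.67, and on each of them the groups overlapped.

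The metallothionein family was drawn up after the members were seen and had 17 probe sets, of which MT2C contributed the only 2 members. MT2B was the nearest to them, with 9.68, 7.41 and 11.15 in mock, 8.34, 6.62 and 9.11 in arbusculated and 5.02, 4.14 and 8.65 in systemic arrays on Os.12410.1.S1_a_at. Systemic array 3 was as high as the other groups there and kept it out. Of the 13 family probe sets of like level, 11 had a systemic mean below both other means, with a median systemic minus mock difference of -0.56 log2. These 11 include the 2 members and the MT2C probe sets Os.12791.2.S1_x_at and Os.12791.4.S1_x_at. Over all probe sets of like level the share with such a mean was 37.0%. In lists without a member it was 32 of 41 for protein kinases and 10 of 29 for ribosomal proteins. Because the family was chosen for its members, no family trend is read from the count.

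GER2 (LOC4344839) encodes a germin-like protein, one of a family of secreted cupin-fold glycoproteins of the cell wall. It stood at 8.20, 8.12 and 7.38 in mock, 8.86, 5.50 and 5.84 in arbusculated and 3.09, 3.23 and 2.97 in systemic arrays. The systemic arrays were close together (SD 0.13, n = 3) and 2.28 log2 under the nearest other value. The arbusculated arrays were split, with array 1 above all mock arrays and arrays 2 and 3 below them. The drop was 3.64 log2, and the systemic mean of 3.10 stood at percentile 7.44 of all probe sets.

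Of the 12 germin-like probe sets measured, a family also drawn up afterwards, GER2 was the only member. GER1 (Os.2209.1.S1_at), likewise a germin-like protein, read 8.41, 8.24 and 5.52 in mock, 6.68, 4.84 and 5.04 in arbusculated and 3.90, 5.35 and 2.75 in systemic arrays. Its arbusculated and systemic arrays overlapped, and its arbusculated mean was under 6. Of the 6 family probe sets of like level 2, GER2 among them, had the systemic mean below both others, and the median systemic minus arbusculated difference was 0.30 log2.

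GLUB-5 (LOC4328968) encodes a glutelin, the class of storage protein that fills the rice grain. It was the most scattered member, with 9.15, 5.10 and 4.61 in mock, 3.27, 9.21 and 12.08 in arbusculated and 3.10, 2.80 and 2.64 in systemic arrays. The systemic arrays lay together near the floor. Arbusculated array 1 exceeded the highest of them by 0.17 log2 and was the lowest value outside the systemic group, whereas arbusculated array 3 was the highest of all. The drop of 3.44 log2 was measured from the mock mean, to which mock array 1 gave the highest value. Among 6 glutelin probe sets GLUB-5 was the only member, and its relative GLUB-4 read 6.32, 5.81 and 6.03 in mock, 5.55, 6.03 and 5.26 in arbusculated and 6.28, 6.12 and 6.38 in systemic arrays, with no lower level in systemic cells.

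HCT2 (LOC4329959) encodes a hydroxycinnamoyl transferase, an enzyme that joins hydroxycinnamic acids such as coumarate to acceptor molecules in phenylpropanoid metabolism. It was bright in all groups, with 8.67, 11.39 and 8.99 in mock, 10.58, 10.70 and 8.83 in arbusculated and 7.72, 7.82 and 7.59 in systemic arrays. The systemic arrays were tight (SD 0.12, n = 3) and remained at percentile 91.2, so HCT2 stayed among the brighter transcripts. The systemic mean was 3.93-fold below mock and 5.02-fold below arbusculated cells. HCT1, measured beside it in the family of 4 probe sets, read 6.66, 8.16 and 6.39 in mock, 8.56, 7.43 and 8.34 in arbusculated and 6.57, 6.47 and 6.28 in systemic arrays. Its systemic arrays lay below all arbusculated ones and overlapped mock array 3.

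CSLA7 (LOC4343994) belongs to the cellulose synthase-like A family, whose studied members in plants make the mannan backbones of cell wall polysaccharides. It read 7.20, 7.10 and 5.65 in mock, 5.22, 5.63 and 7.51 in arbusculated and 4.46, 4.66 and 4.11 in systemic arrays. Mock array 3 and arbusculated arrays 1 and 2 were low among their groups, and the nearest of them stood 0.56 log2 above systemic array 2. It was the only member among 4 family probe sets, and the only other of like level, CSLA5, had means of 6.30 in mock, 6.46 in arbusculated and 6.35 in systemic cells.

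CKX11 (LOC4345764) encodes a cytokinin dehydrogenase, an enzyme that degrades the plant hormones called cytokinins. Probe set Os.27224.2.A1_at read 6.60, 8.54 and 8.88 in mock, 7.67, 7.62 and 7.15 in arbusculated and 5.85, 5.89 and 5.93 in systemic arrays. The systemic arrays differed among themselves by less than for any other member (SD 0.04, n = 3), and mock array 1 came nearest to them. The second CKX11 probe set, Os.27224.1.S1_at, read 6.85, 8.18 and 6.77 in mock, 7.00, 6.77 and 6.45 in arbusculated and 6.77, 6.37 and 6.61 in systemic arrays. Its groups overlapped, and the systemic mean was 0.68 log2 below mock and 0.15 below arbusculated cells. The other 4 cytokinin dehydrogenase genes measured, CKX1, CKX3, CKX4 and CKX5, gave no member.

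KIN14A (LOC4327702) encodes a kinesin of the kinesin-14 family, motor proteins that move along microtubules. It read 7.14, 7.34 and 7.66 in mock, 7.71, 7.41 and 7.14 in arbusculated and 3.51, 5.71 and 5.95 in systemic arrays. The mock and arbusculated arrays lay within 1 log2 of each other, and the systemic arrays scattered more, with array 1 the lowest. The systemic mean was 5.01-fold below mock and 5.15-fold below arbusculated cells. It was the only member among 16 kinesin-14 probe sets, and 4 of the 7 of like level, itself among them, had the systemic mean below both others.

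CYCH-1 (LOC4334040) encodes cyclin H, the partner of the CDK-activating kinase, which phosphorylates other cyclin-dependent kinases and works within the general transcription factor TFIIH. It read 6.99, 6.38 and 6.34 in mock, 6.89, 6.41 and 6.46 in arbusculated and 4.82, 4.85 and 4.44 in systemic arrays. The 3 systemic arrays were 1.49 log2 or more under all others, with a scatter of 0.23 (SD, n = 3), and the mock and arbusculated arrays overlapped throughout. CYCH-1 was the only member among the 54 probe sets whose symbol or synonym begins with CYC, CDK or CKS, a list that by this matching also took in CPS2, CPS4 and CYC07, which are not cyclins. Of the 17 of like level 11, CYCH-1 among them, had the systemic mean below both others, against 37.0% of all probe sets of like level. Their median systemic minus mock difference was -0.42 and systemic minus arbusculated difference -0.97 log2. Such means were not particular to this list. Among lists without a member they were found in 32 of 41 probe sets of protein kinases, 22 of 31 of heat shock genes and 10 of 29 of ribosomal proteins, all of like level. The kinase of the same complex, CAK-R2 (Os.2689.1.S1_a_at), had means of 5.66 in mock, 6.49 in arbusculated and 5.80 in systemic cells, so its systemic level was not below mock.

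**Figure D3:**
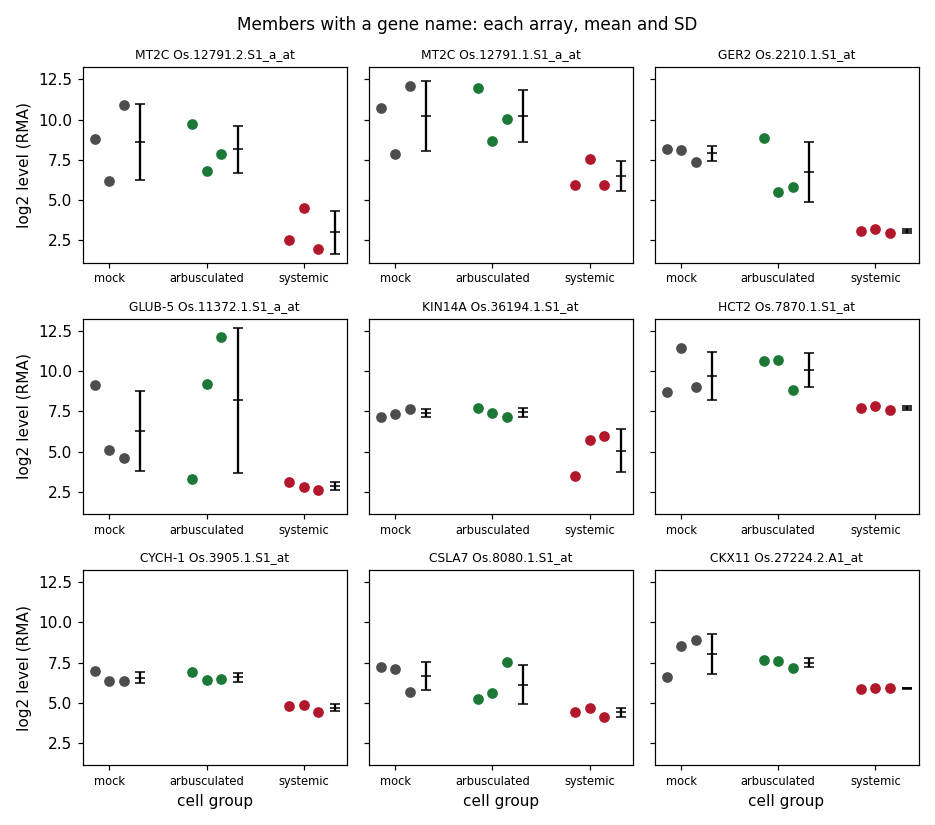
Log2 level on each array for the 9 member probe sets whose gene has a name, by cell group. Points are single arrays, and the bar beside each group is its mean ± SD (n = 3). KIN14A and CYCH-1 show mock and arbusculated arrays within 1 log2 of each other, whereas MT2C, GER2 and GLUB-5 spread over several log2 units in those groups.

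The members without a gene name included several of the largest drops. Probe set Os.6286.1.S1_at, paired with no gene, read 8.40, 7.08 and 7.10 in mock, 7.68, 6.97 and 9.42 in arbusculated and 2.15, 4.89 and 5.70 in systemic arrays. Its companion of the same design name, Os.6286.1.S1_x_at, gave nearly the same values and a drop of 3.10 against 3.28. By design name they share a target and are not independent.

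LOC4325841 (Os.9827.1.S1_at) read 9.20, 11.21 and 5.98 in mock, 8.97, 5.55 and 8.30 in arbusculated and 4.72, 4.56 and 4.21 in systemic arrays. Its 3 systemic arrays were close together and the 6 others spread over more than 5 log2 units. A second probe set of the same design name, Os.9827.1.S1_a_at, was 2.69 log2 lower in systemic than in mock cells and 0.44 lower than in arbusculated cells, whose mean of 5.52 was near the systemic 5.08.

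LOC4327756 (Os.23605.1.A1_at) was the brightest member, with 10.86, 11.03 and 11.05 in mock, 10.72, 11.68 and 10.67 in arbusculated and 7.37, 8.41 and 9.05 in systemic arrays. The mock and arbusculated arrays were within about 1 log2 of each other and the nearest systemic array was 1.62 log2 below them. The remaining members among the 12 largest drops were OsAffx.1926.1.S1_at with 2.58 log2, LOC4331205 with 2.46, LOC4328250 with 2.43 and LOC4339277 with 2.42.

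LOC4344732 had 3 member probe sets, all of the same design name, with drops of 2.26, 1.89 and 1.75 log2. On Os.46608.1.A1_s_at it read 9.71, 6.97 and 6.87 in mock, 7.37, 7.01 and 7.14 in arbusculated and 4.58, 5.27 and 4.89 in systemic arrays. A probe set of another design name paired with the same gene, Os.8869.1.S1_at, read 4.98, 7.19 and 5.44 in mock, 8.17, 6.18 and 7.63 in arbusculated and 6.97, 8.61 and 6.13 in systemic arrays. Its systemic mean was 1.37 log2 above mock, so the probe sets paired with LOC4344732 disagreed in direction.

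At the edge of the rule the values ran on without a step. The members nearest the limit were LOC4335600, LOC4343288, LOC4348694 and Os.49977.1.S1_at with a drop of 1.51 log2 each and LOC4337397 with 1.52. Just outside lay OsAffx.31358.1.S1_at and IRE1, a sensor of unfolded proteins in the endoplasmic reticulum, whose systemic means of 4.55 and 5.35 lay just short of the limit, LOC4334506 and LOC4325302 with 1.49 and LOC4330910 with 1.48. A further 394 probe sets met the level and the overlap criteria with a drop under 1.5.

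**Figure D4:**
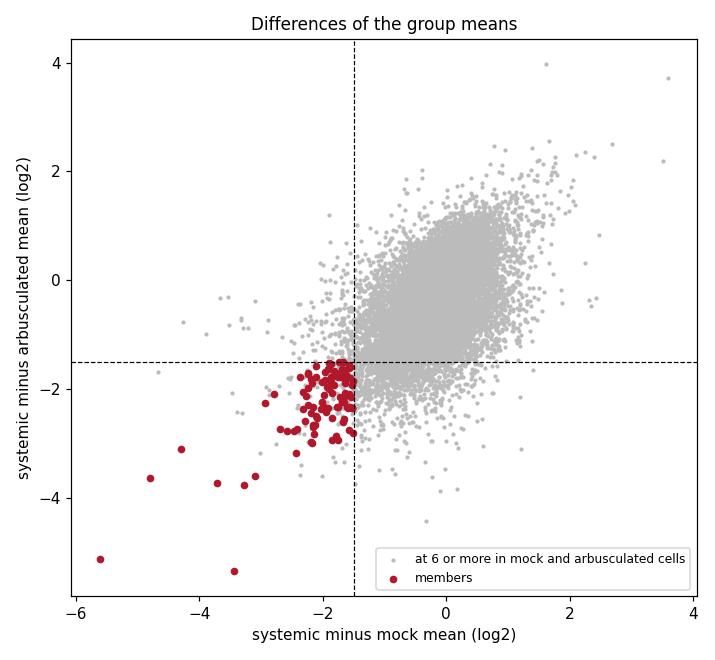
Systemic minus mock difference (horizontal axis) and systemic minus arbusculated difference (vertical axis), both of group means in log2, for the 17925 probe sets at 6 or more in mock and arbusculated cells. Members are red and dashed lines mark -1.5. The members occupy the lower left corner by selection, and grey points inside that corner had overlapping arrays.

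The rule set neither the sign nor the size of the difference between arbusculated and mock cells, though it placed both above the systemic values. This difference was tested with limma, a linear model with moderated variances, over all 57258 probe sets with Benjamini-Hochberg adjustment. None of the 99 members passed an adjusted p of 0.05 (0 members, against 107 probe sets or 0.187% over all), and the lowest adjusted p was 0.309. At an unadjusted p under 0.05 there were 4 members, against 8124 of all 57258 probe sets, which is the larger share. The 4 were Os.49977.1.S1_at, LOC4352213, LOC4345649 and LOC4330774, which were higher in arbusculated cells by 1.31, 1.18, 1.09 and 0.94 log2. Members called also numbered 0 in each of the other fits tried. At a share of 0.187% over all, a count of 0 among 99 says nothing about the members. Nothing in the labels states that the replicates came from separate plants, so p-values measure the spread between these samples only.

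The median arbusculated minus mock difference of the members was 0.20 log2, against -0.12 over all probe sets and -0.04 over those of like level. The difference was above 0 in 70 of the 99 (70.7%), against 47.6% of probe sets of like level. The members were selected for a drop below both means, which can itself shift this share and the median, so nothing is read from either. The difference was within 0.5 log2 of 0 in 63 members and within 1 log2 in 91. The arbusculated and mock arrays did not overlap in 5 members, all higher in arbusculated cells, against 20.7% of all probe sets and 21.2% of those of like level. The members' share was thus below that of the array as a whole. The members also scattered more among replicate arrays, and the part of this in the share was not tested.

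The members with the largest differences between arbusculated and mock cells were GLUB-5, Os.49977.1.S1_at and LOC4349759 upward and LOC4325841, GER2 and LOC4341420 downward. GLUB-5 was higher in arbusculated cells by 1.90 ± 2.04 log2 (SE) with an adjusted p of 0.647 (limma), and this became -0.047 without arbusculated array 3. LOC4349759 differed by 1.20 ± 0.60, with an adjusted p of 0.386. LOC4325841 had -1.19 ± 1.28 (adjusted p = 0.648), which became 0.019 without mock array 2.

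GER2 had -1.17 ± 0.77 (limma adjusted p = 0.470), and its lowest adjusted p in any fit was 0.0801, without arbusculated array 1. LOC4341420 had -0.69 ± 0.67, which became 0.15 without mock array 1. By contrast CYCH-1 differed by 0.019 ± 0.26 log2 and KIN14A by 0.04 ± 0.58. Differences of about the size of these errors could not be detected.

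For completeness, the contrasts that the rule used gave the following counts, from which nothing is read. Against mock cells 0 members passed the limma test in systemic cells, as did 0% of all probe sets (2485 had an unadjusted p under 0.05, the members 96 of them). Higher in arbusculated than in systemic cells, 4 members passed, against 0.232% of all probe sets. They were CYCH-1, LOC4345649, LOC4330774 and LOC4341921. The count of 4 became 0 without arbusculated array 1 or 2 or without systemic array 1 or 2, 1 without arbusculated array 3, mock array 3 or systemic array 3, and 2 without mock array 2.

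Other probe sets paired with the same genes were not used by the rule, although they came from the same arrays. There were 44, over 30 of the 78 genes, and the other 48 genes had none. Their median systemic minus mock difference was 0.00 log2 and their median systemic minus arbusculated difference -0.33. In 19 of the 44 (43.2%) the systemic mean was below both others, against 25.7% of all probe sets, and in 12 it was above both. Of the 44, 6 share their design name with a member and are not independent of it, and all 6 are among the 19. Being non-members, the 44 could hardly hold a drop of 1.5 log2, so its absence among them is set by the selection. The nearest was Os.9023.1.S1_at of LOC4325980 with 1.47, which shares its design name with the member Os.9023.1.S1_x_at, whose drop was 1.72.

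Many of these probe sets were dim, 24 of the 44 having a mean under 6 in mock or arbusculated cells. The 20 of like level, over 15 genes, had a median systemic minus mock difference of -0.10 log2 and a median systemic minus arbusculated difference of -0.63. In 12 of them (60%) the systemic mean was below both others, against 37.0% of all probe sets of like level. These 12 include Os.9023.1.S1_at and Os.12791.2.S1_x_at, which share their design names with members. Among the 44 the systemic arrays lay clear of all others in 1, a dim probe set of LOC4340471 with means of 3.44, 3.49 and 2.99 in mock, arbusculated and systemic cells. Because probe sets that met the rule had been taken out as members, these counts describe the remaining probe sets and not how often a drop recurs within a gene. For 2 genes, MT2C and LOC4344732, the rule was met on more than 1 probe set.

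**Figure D5:**
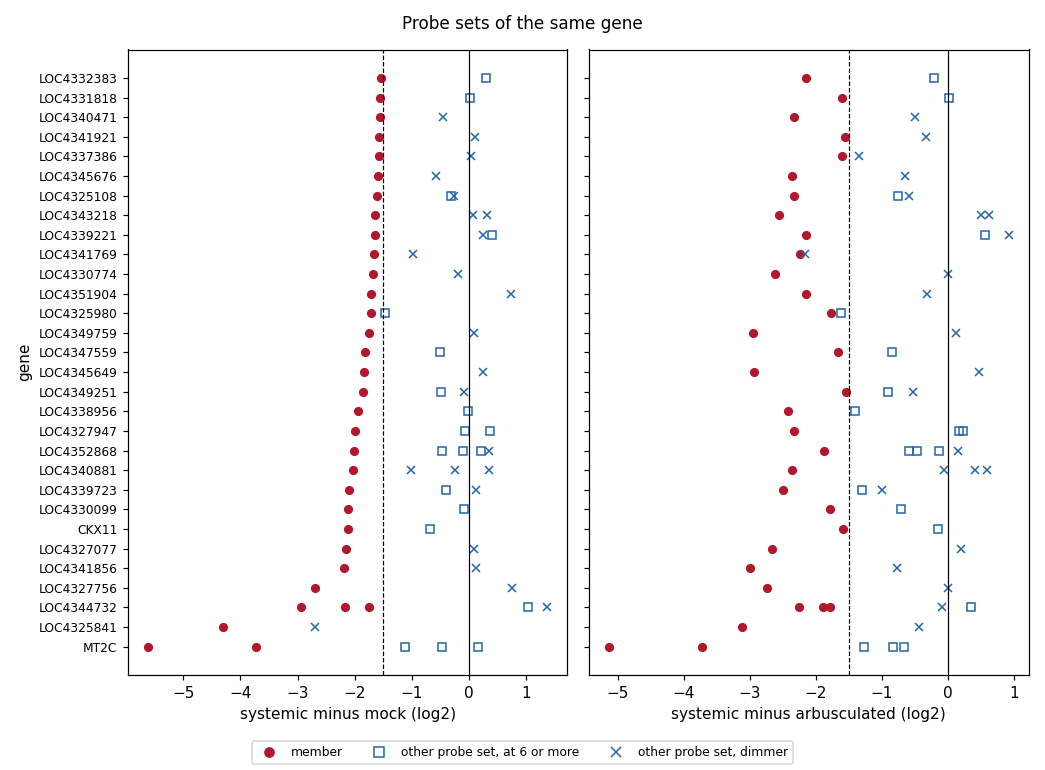
Systemic minus mock (left) and systemic minus arbusculated (right) differences of group means, in log2, for the 30 member genes with other probe sets. Filled circles are members, open squares other probe sets at 6 or more in mock and arbusculated cells, crosses dimmer ones, and the dashed line marks -1.5. The other probe sets spread around 0 on the left, with a median of 0.00, and lie partly below 0 on the right, with a median of -0.33.

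By the suffix of their names, 6 members were of the kind whose probes may match unrelated transcripts (_x_at), which make up 17.5% of probe sets of like level. A further 9 were of the kind shared by several transcripts (_s_at, 5.72% of those of like level) and 5 of the kind shared by transcripts of 1 gene (_a_at, 3.63%). The other 79 had no suffix. The member genes had a median span of 3828 bases, against 3659 for all genes with a probe set of like level. No member genes were direct neighbours among the measured genes, and 1 pair, LOC4337386 and LOC4337397, lay with 3 measured genes between.

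Members made up 0.173% of all probe sets tested, and at that share about 1.08 would fall in the 622 probe sets of the 10 lists without a member. These lists are thus too small for their counts of 0 to say anything about the members. They held 41 probe sets of ribosomal proteins, 64 of heat shock genes, 81 of auxin genes, 152 of transcription factors, 89 of protein kinases, 120 of transporters, 19 of ubiquitin and proteasome genes, 29 of splicing genes and 22 of meiosis and DNA repair genes. The symbiosis signalling list had 0 members among 9 probe sets. A gene of that list came near, namely CCAMK, the calcium- and calmodulin-dependent kinase that reads the nuclear calcium signal of root symbioses. It was picked out after its values were seen. On Os.51939.1.S1_at it read 6.75, 6.40 and 7.09 in mock, 7.10, 6.69 and 7.12 in arbusculated and 5.41, 5.39 and 5.24 in systemic arrays. The systemic arrays lay below all others, but their mean was less than 1.5 log2 below the mock mean. The second CCAMK probe set, Os.53033.1.S1_at, read 6.51, 7.39 and 6.39 in mock, 6.94, 7.45 and 6.94 in arbusculated and 7.20, 6.58 and 5.87 in systemic arrays, which overlapped.

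Markers of other root cell types were read beside the members. Each gene was read from its brightest probe set. The 5 genes listed with the design as endodermis markers were SHR1, SCR1, CASP1, Lsi1 and Lsi2. Whether they are confined to the endodermis was not tested here. Their summed log2 level ran from 35.9 to 39.3 in mock, from 34.8 to 42.6 in arbusculated and from 35.9 to 36.6 in systemic arrays. It was highest on arbusculated arrays 1 and 3 and mock array 2, at 42.6, 41.5 and 39.3, and these were also the arrays with the highest median of the members. On mock arrays 1 and 3 and arbusculated array 2 it was 36.0, 35.9 and 34.8, within or below the systemic range. The medians of the members there were 7.03, 6.87 and 6.93, against 5.11, 5.04 and 5.34 on the systemic arrays. The rule placed every member higher on those arrays than on the systemic arrays, so nothing is read from these medians. Lsi1 and Lsi2 were bright on all arrays, with means of 10.4, 11.1 and 9.93 and of 10.8, 10.8 and 10.2 in mock, arbusculated and systemic cells. The 3 xylem and sclerenchyma cellulose synthases CESA4, CESA7 and CESA9 summed to between 21.2 and 24.0 in mock, 18.8 and 19.8 in arbusculated and 18.2 and 20.7 in systemic arrays. The 3 phloem genes summed to between 18.1 and 18.8, 18.1 and 19.1, and 16.9 and 18.9. Endodermis and phloem sums of the systemic arrays overlapped with those of both other groups, xylem sums with those of arbusculated cells only, and their part in the levels of the members was not tested.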

How the data were processed

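For each of 9 single-colour arrays the authors deposited 1 log2 level per probe set, computed with RMA per the submitters' processing notes. RMA corrects background, normalises quantiles across arrays and summarises the probes of a set, and its version was not given in the sources used here. Levels lay between 1.52 and 14.06 and were not transformed further. Quantile normalisation gives every array nearly the same distribution, so a shift of most transcripts at once would not show. Precision was limited by the 3 arrays available for each group.

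Controls of the array maker were removed from the 57381 probe sets. The 57258 remaining include 64 reporter probe sets. Reference tables paired 22436 probe sets with 1 gene and 95 with several, and 17905 genes had a probe set. Gene neighbours and spans come from the RefSeq annotation of assembly ASM3414082v1. No sequences are shown.

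All 9 arrays were fitted in 1 linear model with limma 3.58.1 in R 4.3.3, without covariates, with two-sided tests and Benjamini-Hochberg adjustment over all probe sets tested at 0.05. The fit was tried on simulated data with changes larger than any arbusculated minus mock difference of the members. Smaller changes were not simulated, so the power for them is unknown. Counts and medians were computed in Python 3.11.15 with pandas 2.3.3.

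The members, lists and naming rule were chosen with earlier results of these data known. Named were the members with a gene name, the 12 largest drops, the 5 probe sets on each side of the threshold, the 3 largest arbusculated minus mock differences in each direction and genes with several member probe sets. Gene lists were matched by symbol or synonym. The lists of metallothioneins, germin-like proteins, cytokinin dehydrogenases, hydroxycinnamoyl transferases, cellulose synthase-like A, kinesin-14 and glutelins were added after the members were seen. No epidermis or exodermis marker was matched. Alternatives changed the rule's thresholds, the scaling, the fit and the arrays used.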

Additional observations from a re-analysis of the deposited data

How the results depend on the processing

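The number of members depended on the rule. It was 259 with a drop of at least 1, 31 with at least 2, 44 with means of at least 7 and 228 with overlap allowed. It stayed within 1.5 times of 99 with means of at least 5, group medians (68), arrays centred on their medians (110), further quantile normalisation (101) and cross-hybridising probe sets left out (84). Of the 99, group medians kept 53, centring 98 and quantile normalisation 90. Leaving out 1 array gave 91 to 271 probe sets, and without mock array 2 the rule gave 101, of which 70 were among the 99.

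Members called between arbusculated and mock cells stayed at 0 in all alternatives. Members called higher in arbusculated than in systemic cells numbered 2 with trend and robust fitting, 0 with only the 6 arrays of the contrast, 8 with arrays centred, 8 with dim probe sets left out, 9 with array weights and 0 to 3 without 1 array. With the replicate block they numbered 0, and the block gave 32 calls between arbusculated and mock cells over all probe sets against 107 without it. Correlations of deviations between arrays of the same replicate number ran from -0.285 to 0.0388, with 0 of 3 pairs over 0.1 in any contrast. Such correlations cannot show whether arrays of the same number shared plants or handling. Members called between systemic and mock cells numbered 0 to 1 without 1 array.

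The median systemic minus arbusculated difference of the other probe sets of member genes was -0.63 at means of at least 6 and ran from -0.59 to -0.17 without 1 array. The matching difference from mock ran from -0.16 to 0.07, and the median arbusculated minus mock difference of the members from 0.08 to 0.30. Arbusculated minus mock differences turned sign for MT2C on Os.12791.1.S1_a_at (-0.26 after quantile normalisation, -0.067 with array weights), KIN14A (-0.064) and CYCH-1 (-0.028) after quantile normalisation, and LOC4325841 (0.25 with array weights). Without 1 array the ranges of those that turned were -1.17 to 0.94 and -1.70 to 0.65 for the MT2C probe sets Os.12791.1.S1_a_at and Os.12791.2.S1_a_at, -0.047 to 4.36 for GLUB-5, -0.11 to 0.18 for KIN14A, -0.15 to 1.21 for HCT2, -0.13 to 0.23 for CYCH-1, -2.60 to 0.019 for LOC4325841 and -1.25 to 0.15 for LOC4341420. None of these differences passed the test in any setting, and the cause of each change was not tested. With 3 arrays a group the sizes of the drops are imprecise, and no detection calls were used for the dimmest systemic readings.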
